A study of Mus musculus with 24 samples.

Results

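Hip cap cartilage and metatarsal cartilage that were cultured without pressure were compared across all genes. Hip caps are the cartilage caps of the femoral head, taken here from male C57/BL6 mice (C57/BL6J in the study's methods) of 4 weeks, with 2 hip caps of a mouse pooled per library. Metatarsals are the cartilage rudiments of the foot bones, isolated from mouse embryos at day 15 of gestation (E15) of the same strain, with 6 metatarsals pooled per library. Both explants were cultured for 24 hours, kept for 1 hour in the pressure vessel at 0 MPa and cultured for a further 24 hours. Hip caps were kept in DMEM with GlutaMAX and metatarsals in α-MEM with bovine serum albumin, β-glycerophosphate and ascorbic acid phosphate. No group carried a genetic change. The comparison took the hip cap control libraries HC1, HC2 and HC3 against the metatarsal control libraries MC1 to MC4, which are 7 of the 24 libraries of the series. The remaining hip cap control, HC4, was left out as in the study and enters at the end as a check. The other 15 libraries in the fit of 22 belong to pressure groups and entered through the spread and the batch terms. Tissue, age, sex, culture medium and the number of pooled explants changed together between the groups, so their parts in a difference cannot be told apart. The hip caps are labelled male and the sex of the embryos is labelled unknown, and nothing says that the metatarsal pools came from separate litters, so the p-values measure the spread between these libraries.

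The hip cap at this age is mostly articular cartilage, the tissue that lines a joint and persists through life, together with deeper cartilage that is later replaced by bone. The embryonic metatarsal is a growth plate model, in which chondrocytes divide, enlarge and are replaced by bone, and a perichondrium of fibroblast-like cells surrounds it. Chondrocytes of a limb keep an expression code of Hox genes from patterning, and Indian hedgehog, parathyroid hormone-related protein, BMP, FGF and WNT signals set the pace of their maturation. Bulk RNA cannot tell fewer cells of a type from less RNA per cell, and this holds for each difference below.

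Library totals ranged from 6731592 to 15027631 estimated counts in HC1 to HC3 and from 4185557 in MC1 to 17321026 in MC2. The most abundant feature, which has no symbol in the annotation used, took 40.0%, 40.6% and 25.1% of the counts in HC1 to HC3 and between 21.5% and 26.6% in the metatarsal controls. Protein-coding genes took 33.9% to 44.6% in hip caps and 50.7% to 57.8% in metatarsals, and levels are therefore given as counts per 1000000 of the library (CPM) after scaling by the trimmed mean of M-values (TMM). By the study's methods the RNA was partly degraded. Xist, which silences an X chromosome in female cells, was measured at 1.90, 3.02 and 1.14 CPM in HC1 to HC3 and 1975, 2092, 646 and 1452 CPM in MC1 to MC4. MC2 stood apart in epidermal genes, as desmoplakin Dsp reached 143 CPM and keratin Krt10 reached 94.4 CPM there, against at most 4.89 CPM and 2.95 CPM in the other 6 libraries.

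Of the 52178 genes in the table, 21283 passed the filter on low counts. At an adjusted p of at most 0.05 (edgeR's quasi-likelihood test), 2994 genes (14.1% of those tested) were upregulated and 3378 (15.9%) were downregulated in hip caps relative to metatarsals, 29.9% in all. The median log2 fold change was -0.08. All 3 hip cap values lay above all 4 metatarsal values for 4172 genes (19.6%) and below them for 4843 genes (22.8%). MC1 is the sole metatarsal control assigned to the sequencing run of HC1 to HC3, as far as the runs could be read from the study. That run is called run 1 here, and with the run as a term MC1 had a weight of -0.64 in the contrast, against -0.12 for each of MC2 to MC4. Through the batch terms the metatarsal library M504, under 50 MPa, had a weight of -0.36 and M501 to M503 of 0.12 each. By the labels HC3 was unstranded, like M504, while HC1, HC2 and MC1 to MC4 were stranded. Leaving out HC3 therefore also removed the sole unstranded control library of the fit. The part of library type in the changes without HC3 was not tested. Without the run as a term, 3912 genes were upregulated and 4300 downregulated. Without MC1 1204 genes (5.64%) were upregulated and 1366 (6.4%) downregulated, and without HC3 2155 and 2235. Within that run alone, HC1 to HC3 against MC1, 593 genes (2.77%) were upregulated and 478 (2.23%) downregulated, with the spread pooled over the groups of that run. Besides TMM, relative log expression (RLE) factors and library sizes alone were tried as scalings. Scaling by library sizes alone moved the median by -0.89 and turned the split to 712 upregulated (3.35%) and 8217 downregulated (38.6%) genes. Below, counts of a gene family are set against the shares of 14.1% and 15.9%, the family's counts in run 1 alone stand beside them, and counts are repeated where leaving out 1 library or another scaling moves them by over 1.5 times and by at least 2 genes. Counts from another fit go with the shares of all genes in that fit, such as 3.35% and 38.6% with library sizes alone. A call of a single gene that was lost without 1 library has the adjusted p without it beside the value. Most genes named below were picked among members whose groups did not overlap, so for them non-overlap is part of the choice and not a further result.

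**Figure D1:**
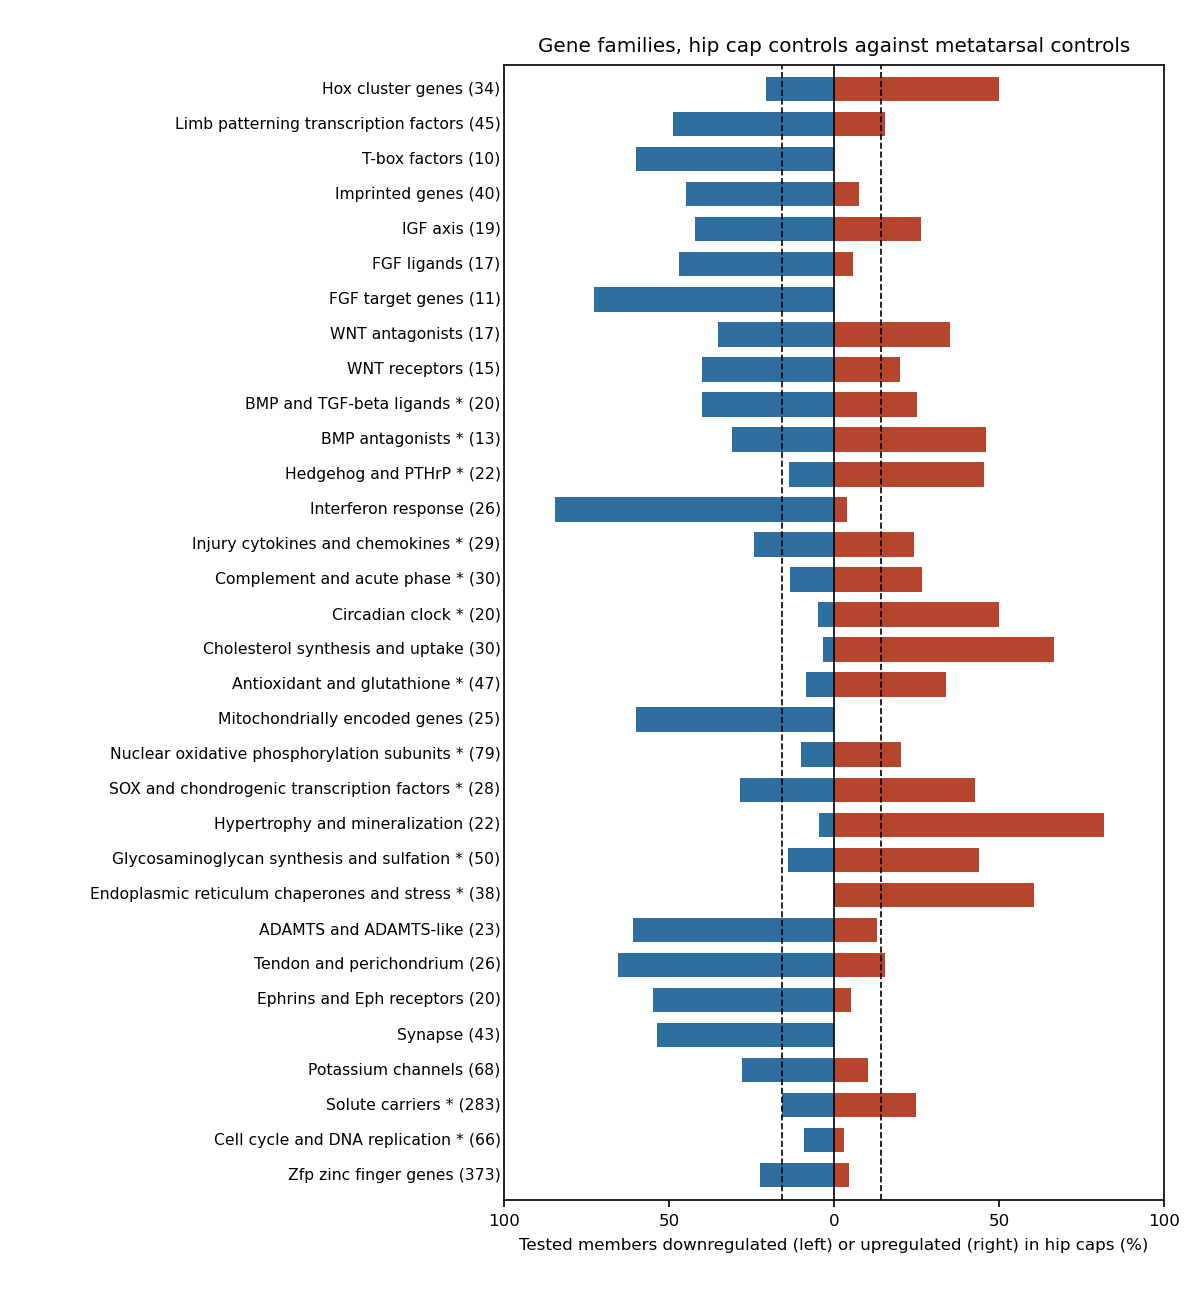
Percent of the tested members of 32 gene families that were upregulated (right) or downregulated (left) in hip cap controls (HC1 to HC3) relative to metatarsal controls (MC1 to MC4) at an adjusted p of at most 0.05, with the number tested beside each name. Dashed lines mark the 14.1% and 15.9% of all genes tested, and an asterisk marks families whose majority direction or median sign turned when libraries were scaled by library size alone. With that scaling 3.35% of all genes were upregulated and 38.6% downregulated.

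Outside cartilage matrix and muscle, the genes with the highest log2 fold changes in hip caps encoded a collagen of hypertrophic cartilage, serum-type protease inhibitors and secreted WNT inhibitors. They were Col10a1 (9.56 ± 2.54, adjusted p = 0.14 without MC1), Sost (8.39 ± 1.30), Frzb (7.40 ± 0.56), F5 (7.29 ± 0.74), Gpx3 (7.28 ± 0.87), Fxyd3 (7.09 ± 1.01, adjusted p = 0.42 without MC1), Myoc (6.98 ± 0.67), Pcsk6 (6.93 ± 0.54), Il17b (6.65 ± 0.73), F13a1 (6.62 ± 0.34) and Loxl4 (6.60 ± 0.79) on the log2 scale (± SE), beside Serpina1b (8.30 ± 1.38, adjusted p = 0.97 without MC1) and Serpina1a (7.42 ± 1.13, adjusted p = 0.96 without MC1). Where a group held 1 to 3 counts in all, the ratio of the levels is given in place of the log2 fold change, with its 95% interval from counting alone, and where it held 0 the fold is a lower bound against 3 counts over the group. Serpina1d had 2 counts in metatarsals, 3377-fold higher in hip caps, counting interval 935 to 27883, adjusted p = 2.9e-06, and 0.18 without MC1. The Serpina1 paralogs, which encode α1-antitrypsin, are near-identical, so reads could be split among them. Prg4, which encodes the joint lubricant lubricin, was measured at 4388, 3174 and 2471 CPM in HC1 to HC3 and 5.74, 14.8, 201 and 20.9 CPM in MC1 to MC4 (log2 fold change 6.78 ± 1.74 (SE), adjusted p = 0.0085, and 0.16 without MC1). MC1 had the lowest of the 4 metatarsal values in Prg4 and Col10a1, and Col10a1 was measured at 6493, 6328 and 7005 CPM in HC1 to HC3 and 0.191, 0.963, 15.3 and 4.48 CPM in MC1 to MC4.

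The genes with the lowest log2 fold changes were the limb bud ligand Fgf10, the homeobox genes Evx2 and Hoxd13, Xist and genes of the fibrous and elastic matrix. They were Fgf10 (0 counts in hip caps, lower by at least 89.3-fold), Evx2 (0 counts in hip caps, lower by at least 81.4-fold), Xist (-10.17 ± 1.91, adjusted p = 0.055 without MC1), Mfap4 (-9.02 ± 0.60), Kera (1 count in hip caps, 562-fold lower in hip caps, counting interval 101 to 22196), Igfbp2 (1 count in hip caps, 483-fold lower in hip caps, counting interval 86.6 to 19059), Crabp1 (2 counts in hip caps, 314-fold lower in hip caps, counting interval 87.1 to 2597), Iigp1 (3 counts in hip caps, 215-fold lower in hip caps, counting interval 73.7 to 1044), Fbn2 (-7.83 ± 0.56), Trhde (1 count in hip caps, 209-fold lower in hip caps, counting interval 37.5 to 8251), Serinc2 (2 counts in hip caps, 218-fold lower in hip caps, counting interval 60.3 to 1798), Aspn (-7.39 ± 0.44), Cdh6 (1 count in hip caps, 225-fold lower in hip caps, counting interval 40.5 to 8905) and Ptn (-7.01 ± 0.37). Mfap4 and Fbn2 are components of elastic microfibrils, and Kera and Aspn are small leucine-rich proteoglycans. Mfap4 was measured at 0, 0.477 and 0.191 CPM in HC1 to HC3 and 105, 151, 166 and 145 CPM in MC1 to MC4, with no overlap between the groups.

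The Hox genes, whose order along 4 clusters mirrors their order along the body and limb axes, differed by cluster. In HoxA and HoxD the genes past the test were higher at the 3′ end and lower at the 5′ end, while those of HoxB and HoxC were all higher. Of the 34 Hox genes tested of 39 in the table, 17 (50%) were upregulated in hip caps, 7 (20.6%) were downregulated and 10 did not pass the test (median log2 fold change 1.25). The Hox calls numbered 8 up and 6 down without MC1, 8 up and 5 down in run 1 alone and 9 up and 8 down with library sizes alone (median 0.48). The upregulated genes with the largest values came from the HoxC cluster and from the middle and 3′ parts of HoxD and HoxB, namely Hoxc6 (5.35 ± 0.45), Hoxc8 (5.33 ± 0.55), Hoxc5 (5.20 ± 0.59), Hoxc10 (5.13 ± 0.56), Hoxb7 (4.81 ± 1.04), Hoxd8 (3.72 ± 0.41), Hoxc4 (3.29 ± 0.45) and Hoxd4 (3.16 ± 0.43). The downregulated genes were all of paralog groups 9 to 13, which pattern the limb, namely Hoxd13 (-8.01 ± 0.54), Hoxd11 (-6.62 ± 0.49), Hoxa13 (-4.39 ± 0.42), Hoxd10 (-4.17 ± 0.41), Hoxa11 (-3.10 ± 0.46) and Hoxa9 (-0.88 ± 0.21, adjusted p = 0.099 without MC1), with Hoxd12 at 2 counts in hip caps, 131-fold lower in hip caps, counting interval 36.3 to 1083, adjusted p = 4.3e-07. Of the same paralog groups, Hoxc10 and Hoxc9 (2.99 ± 0.56, adjusted p = 0.1 without MC1) and Hoxd9 (1.07 ± 0.37, adjusted p = 0.1 without HC2 and 0.62 without MC1) were upregulated.

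Hoxd13, which is needed for digit formation, was measured at 0.544, 0.159 and 0.191 CPM in HC1 to HC3 and 73.1, 75.7, 56.3 and 66.1 CPM in MC1 to MC4 (log2 fold change -8.01 ± 0.54 (SE), adjusted p = 3.2e-09). Hoxa13, its HoxA counterpart, was measured at 1.36, 1.43 and 0.762 CPM in HC1 to HC3 and 25.5, 19.9, 18.0 and 23.9 CPM in MC1 to MC4 (log2 fold change -4.39 ± 0.42 (SE), adjusted p = 1.1e-07). Hoxc10, a hindlimb Hox gene, was measured at 24.5, 25.1 and 21.3 CPM in HC1 to HC3 and 0.574, 0.535, 2.00 and 0.540 CPM in MC1 to MC4 (log2 fold change 5.13 ± 0.56 (SE), adjusted p = 7.6e-07). The groups did not overlap in any of these 3 genes. Among the posterior genes, Hoxa10 (-0.33 ± 0.29, adjusted p = 0.42) and Hoxb9 (-1.29 ± 0.98, adjusted p = 0.35) did not pass the test.

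**Figure D2:**
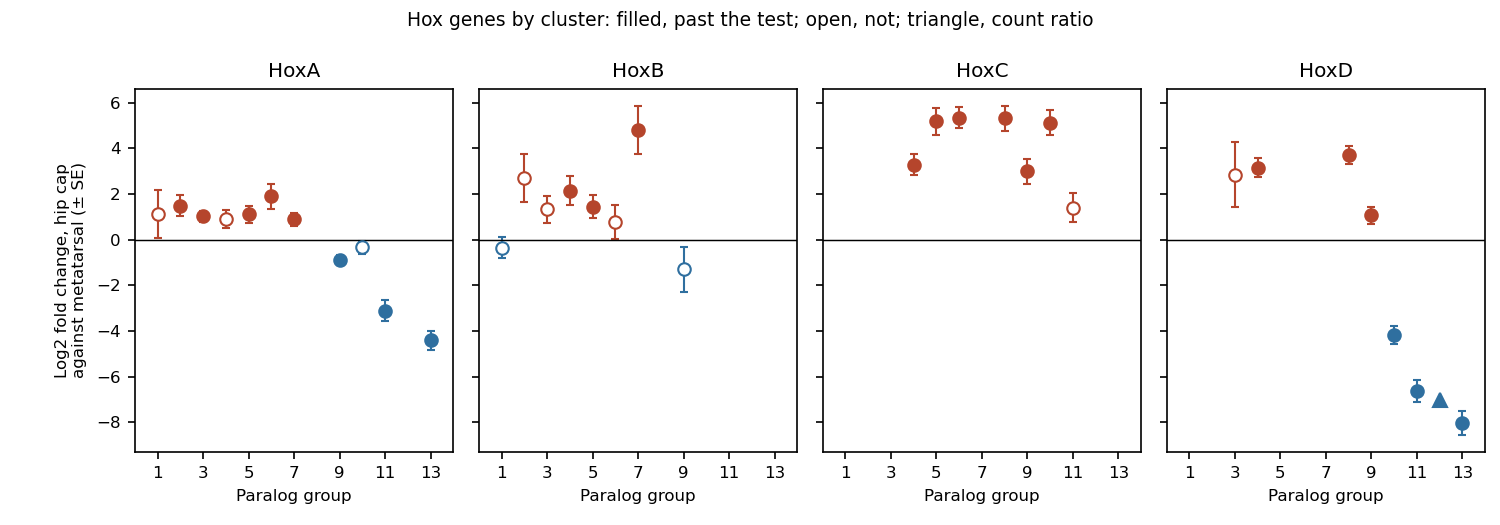
Log2 fold change of hip cap controls relative to metatarsal controls (± SE) for each Hox gene tested, by paralog group (horizontal axis) in each of the 4 clusters. Filled points passed the test and open points did not, the triangle marks Hoxd12, which had 2 counts over the hip caps and is drawn at its count ratio, and the points past the test at paralog groups 11 to 13 all lie below 0.

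Transcription factors that pattern the limb were more often lower than higher in hip caps. Of 45 tested, 7 (15.6%) were upregulated in hip caps, 22 (48.9%) were downregulated and 16 did not pass the test (median log2 fold change -1.59). Limb patterning factors numbered 4 up and 21 down without MC1 and 4 up and 9 down in run 1 alone. The members with the largest values among those downregulated were Osr1 (-5.83 ± 0.49), Twist2 (-5.18 ± 0.56), Sall1 (-4.55 ± 0.35), Prrx1 (-3.55 ± 0.42), Osr2 (-3.54 ± 0.31), Lmx1b (-3.52 ± 0.28), Prrx2 (-3.28 ± 0.41) and Emx2 (-3.15 ± 0.62). Osr1 and Osr2 mark joint and limb mesenchyme, Prrx1 and Prrx2 the early limb mesenchyme, and Lmx1b its dorsal side. The hindlimb determinants Tbx4 and Pitx1 were also downregulated, with Tbx4 (-2.97 ± 0.22) and Pitx1 (-1.56 ± 0.29), and Pitx1 was measured at 9.24, 3.82 and 10.6 CPM in HC1 to HC3 and 18.2, 18.8, 26.5 and 26.8 CPM in MC1 to MC4. Members that went the other way were Irx5 (4.64 ± 0.68), Irx3 (3.82 ± 0.89, adjusted p = 0.18 without MC1), Shox2 (3.24 ± 0.48), Meis2 (2.54 ± 0.38) and Meis1 (2.00 ± 0.31), of which Shox2 and the Meis genes act in the proximal limb. Shox2 was measured at 33.2, 51.7 and 23.1 CPM in HC1 to HC3 and 3.06, 4.28, 2.92 and 1.62 CPM in MC1 to MC4, without overlap of the groups. Of the 10 T-box factors tested, 0 were upregulated in hip caps, 6 (60%) were downregulated and 4 did not pass the test (median log2 fold change -1.45). T-box factors numbered 0 up and 3 down without HC3 and 0 up and 2 down in run 1 alone.

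Imprinted genes, which are expressed from 1 parental copy and many of which act on fetal growth, were mostly lower or did not pass the test. Of 40 tested, 3 (7.5%) were upregulated in hip caps, 18 (45%) were downregulated and 19 did not pass the test (median log2 fold change -0.90). Calls among imprinted genes numbered 0 up and 10 down without MC1 and 0 up and 9 down in run 1 alone. The largest decreases were in Dlk1 (-6.81 ± 0.46), Igf2 (-6.33 ± 0.31), Mest (-4.94 ± 0.40), Cdkn1c (-4.45 ± 0.40), H19 (-3.90 ± 0.38) and Peg10 (-3.41 ± 0.22). Igf2, the fetal insulin-like growth factor, was measured at 44.8, 34.4 and 62.0 CPM in HC1 to HC3 and 3365, 4451, 4163 and 4212 CPM in MC1 to MC4. H19, the noncoding RNA next to Igf2, was measured at 505, 574 and 511 CPM in HC1 to HC3 and 7077, 8878, 5552 and 5813 CPM in MC1 to MC4. Cdkn1c, a cyclin-dependent kinase inhibitor of growth plate chondrocytes, was measured at 29.4, 28.5 and 22.01 CPM in HC1 to HC3 and 511, 566, 544 and 616 CPM in MC1 to MC4. The groups did not overlap in these genes. Snrpn (1.99 ± 0.44, adjusted p = 0.077 without MC1) went the other way, and the growth inhibitors Igf2r (-0.28 ± 0.19, adjusted p = 0.3) and Grb10 (-0.14 ± 0.19, adjusted p = 0.61) did not pass the test.

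A list of fetal RNA-binding proteins, among them those of the let-7 network, and HMGA chromatin proteins had 1 upregulated (10%) and 6 downregulated (60%) members of 10 tested (median log2 fold change -1.60). These genes numbered 0 up and 3 down in run 1 alone. Lin28b, which blocks let-7 processing, was measured at 0, 0 and 0 CPM in HC1 to HC3 and 1.72, 0.642, 0.858 and 1.24 CPM in MC1 to MC4 (0 counts in hip caps, lower by at least 6.52-fold, adjusted p = 0.0011). The IGF2 mRNA-binding proteins were downregulated, with Igf2bp1 (-4.99 ± 0.33), Igf2bp3 (-3.49 ± 0.28) and Igf2bp2 (-1.65 ± 0.18). Of the 19 genes of the IGF axis tested, 5 (26.3%) were upregulated in hip caps, 8 (42.1%) were downregulated and 6 did not pass the test (median log2 fold change -0.10). The IGF axis numbered 3 up and 7 down without HC3, 2 up and 7 down without MC1, 2 up and 7 down in run 1 alone and 2 up and 11 down with library sizes alone (median -1.02). Igf1 was measured at 2.72, 6.05 and 1.33 CPM in HC1 to HC3 and 124, 80.4, 93.8 and 68.4 CPM in MC1 to MC4 (log2 fold change -4.91 ± 0.52 (SE), adjusted p = 1.9e-06). The binding proteins, which hold IGFs in the matrix, moved apart, as Igfbp2 (1 count in hip caps, 483-fold lower in hip caps, counting interval 86.6 to 19059), Igfbp3 (-3.50 ± 0.49), Igfbp4 (-3.20 ± 0.36) and Igfbp5 (-3.59 ± 0.32) were lower while Igfbp7 (1.86 ± 0.25) was higher. The insulin receptor substrate Irs1 (2.09 ± 0.21) was higher, and the receptor gene Igf1r (-0.10 ± 0.21, adjusted p = 0.77) did not pass the test.

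The FGF ligands past the test were lower in hip caps with 1 exception, and their main cartilage receptor was higher. Of 17 ligands tested, 1 (5.88%) was upregulated in hip caps, 8 (47.1%) were downregulated and 8 did not pass the test (median log2 fold change -2.48, or -1.76 with members at 3 or fewer counts in a group set to the floor of 3 counts). FGF ligand calls numbered 0 up and 5 down without MC1 and 0 up and 2 down in run 1 alone. Fgf10, which starts limb outgrowth, was measured at 0, 0 and 0 CPM in HC1 to HC3 and 13.01, 11.7, 14.4 and 13.4 CPM in MC1 to MC4. Fgf18, a perichondrial ligand of FGFR3, was measured at 1.09, 0.159 and 0.286 CPM in HC1 to HC3 and 4.78, 6.53, 4.40 and 5.48 CPM in MC1 to MC4 (log2 fold change -3.66 ± 0.56 (SE), adjusted p = 4.4e-05). Fgfr3, the receptor that restrains chondrocyte proliferation, was measured at 472, 365 and 504.2 CPM in HC1 to HC3 and 34.1, 34.8, 59.9 and 32.8 CPM in MC1 to MC4 (log2 fold change 3.53 ± 0.36 (SE), adjusted p = 2.7e-07). Fgf10 and Fgf18 lay lower, and Fgfr3 higher, in every hip cap library than in any metatarsal library. The receptor genes Fgfr1 (1.72 ± 0.25) and Fgfrl1 (1.65 ± 0.23) were upregulated as well, and Fgfr2 (-0.15 ± 0.16, adjusted p = 0.53) did not pass the test. Genes that FGF signalling induces were lower or did not pass the test. Of 11 tested, 0 were upregulated in hip caps, 8 (72.7%) were downregulated and 3 did not pass the test (median log2 fold change -1.15), and Il17rd (-2.36 ± 0.32), Spry1 (-2.15 ± 0.57, adjusted p = 0.12 without HC3), Spry2 (-1.74 ± 0.23), Etv1 (-1.38 ± 0.20) and Etv5 (-1.15 ± 0.23) were among those downregulated, most of which encode feedback inhibitors or ETS factors. FGF target genes numbered 0 up and 5 down without MC1 and 0 up and 1 down in run 1 alone.

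Secreted WNT inhibitors split into a group that was high in hip caps and a group that was high in metatarsals. Of 17 tested, 6 (35.3%) were upregulated in hip caps, 6 (35.3%) were downregulated and 5 did not pass the test (median log2 fold change -0.27). WNT inhibitors numbered 5 up and 2 down in run 1 alone. The upregulated members were Sost (8.39 ± 1.30), Frzb (7.40 ± 0.56), Wif1 (6.00 ± 0.36), Sfrp5 (5.86 ± 0.53), Notum (5.54 ± 0.57) and Dkk1 (2.36 ± 0.44). Sost, which encodes sclerostin of osteocytes and mineralized cartilage, was measured at 33.2, 27.4 and 29.6 CPM in HC1 to HC3 and 0, 0.0535, 0.343 and 0 CPM in MC1 to MC4. Frzb, which encodes an antagonist of WNT signals, was measured at 657, 812 and 627 CPM in HC1 to HC3 and 2.68, 3.05, 3.20 and 2.55 CPM in MC1 to MC4. Notum, which removes the lipid from WNT proteins, was measured at 27.2, 16.2 and 28.4 CPM in HC1 to HC3 and 0, 0.749, 1.37 and 0.540 CPM in MC1 to MC4. The groups did not overlap in the 3 genes. The downregulated members included Sfrp2 (-5.71 ± 0.48), Sfrp1 (-3.64 ± 0.59), Dkk3 (-3.64 ± 0.38) and Dkk2 (-3.06 ± 0.71). Sfrp2 was measured at 0.544, 1.27 and 1.62 CPM in HC1 to HC3 and 52.1, 59.0, 70.3 and 44.4 CPM in MC1 to MC4. Among 11 ligands, 3 (27.3%) were upregulated in hip caps, 3 (27.3%) were downregulated and 5 did not pass the test (median log2 fold change -0.15), with Wnt5b (3.95 ± 0.56) higher and Wnt11 (-2.39 ± 0.28) and Wnt9a (-2.20 ± 0.39) lower. WNT ligands numbered 1 up and 2 down without MC1, 1 up and 1 down in run 1 alone and 1 up and 4 down with library sizes alone (median -0.79). R-spondins, which raise WNT signals, and their Lgr receptors exchanged members, as Lgr6 (4.21 ± 0.25) was higher and Rspo2 (-4.58 ± 0.62) and Lgr5 (-3.45 ± 0.35) were lower. Rspo4 was measured at 7.34, 5.73 and 9.72 CPM in HC1 to HC3 and 0, 0.107, 0 and 0 CPM in MC1 to MC4 (2 counts in metatarsals, 219-fold higher in hip caps, counting interval 60.7 to 1809.9, adjusted p = 8.4e-05). Of the 15 WNT receptors tested, 3 (20%) were upregulated in hip caps, 6 (40%) were downregulated and 6 did not pass the test (median log2 fold change -0.09). WNT receptors numbered 1 up and 6 down without HC2, 0 up and 3 down without HC3, 0 up and 3 down without MC1, 0 up and 1 down in run 1 alone and 0 up and 9 down with library sizes alone (median -1.003).

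The BMP and TGF-β ligands showed no common direction. Of 20 tested, 5 (25%) were upregulated in hip caps, 8 (40%) were downregulated and 7 did not pass the test (median log2 fold change 0.05). These ligands numbered 4 up and 1 down in run 1 alone and 4 up and 8 down with library sizes alone (median -0.82). Higher in hip caps were Bmp8a (5.99 ± 0.70), Gdf10 (2.70 ± 0.43), Tgfb1 (2.65 ± 0.31) and Bmp3 (2.60 ± 0.22), and lower were Gdf6 (-4.25 ± 0.62), Bmp4 (-2.67 ± 0.40), Gdf11 (-2.66 ± 0.38), Gdf5 (-2.47 ± 0.44), Bmp5 (-1.75 ± 0.30) and Tgfb2 (-1.17 ± 0.17). Gdf5, which marks the joint-forming interzone, was measured at 2.99, 2.55 and 2.76 CPM in HC1 to HC3 and 11.7, 17.3, 16.1 and 24.5 CPM in MC1 to MC4 (log2 fold change -2.47 ± 0.44 (SE), adjusted p = 0.00024). Tgfb1 was measured at 94.0, 97.9 and 117 CPM in HC1 to HC3 and 12.1, 18.7, 20.7 and 20.2 CPM in MC1 to MC4 (log2 fold change 2.65 ± 0.31 (SE), adjusted p = 1.8e-06). Of the receptors, Bmpr1b, which carries GDF5 signals, was measured at 1.90, 2.23 and 2.95 CPM in HC1 to HC3 and 31.0, 19.8, 22.6 and 20.2 CPM in MC1 to MC4 (log2 fold change -3.31 ± 0.27 (SE), adjusted p = 1.8e-08). The receptor genes Bmpr1a (0.02 ± 0.20, adjusted p = 0.95) and Bmpr2 (-0.48 ± 0.20, adjusted p = 0.067) did not pass the test. Among 13 antagonists, 6 (46.2%) were upregulated in hip caps, 4 (30.8%) were downregulated and 3 did not pass the test (median log2 fold change 0.91), with Chrdl1 (4.29 ± 0.45), Chrdl2 (2.84 ± 0.43), Bambi (2.48 ± 0.33) and Grem1 (1.64 ± 0.33, adjusted p = 0.18 without MC1) higher and Fstl1 (-1.86 ± 0.29) lower. BMP antagonists numbered 5 up and 2 down without HC3, 4 up and 1 down without MC1, 3 up and 0 down in run 1 alone and 3 up and 5 down with library sizes alone (median 0.00). The BMP-induced Id genes moved apart, with Id4 (4.34 ± 0.39) and Id1 (1.46 ± 0.22) higher and Id2 (-1.03 ± 0.23, adjusted p = 0.056 without HC3) lower.

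The genes of Indian hedgehog and parathyroid hormone-related protein, the loop that times chondrocyte hypertrophy, were higher in hip caps. Ihh was measured at 99.2, 62.4 and 114 CPM in HC1 to HC3 and 0.766, 0.642, 1.72 and 0.463 CPM in MC1 to MC4 (log2 fold change 6.31 ± 0.72 (SE), adjusted p = 4.5e-06). Pthlh, which encodes the hormone-related protein, was measured at 31.3, 15.4 and 16.7 CPM in HC1 to HC3 and 3.45, 3.58, 3.55 and 1.70 CPM in MC1 to MC4 (log2 fold change 2.92 ± 0.48 (SE), adjusted p = 9e-05). Its receptor gene Pth1r was measured at 851, 536 and 586 CPM in HC1 to HC3 and 19.5, 36.4, 49.0 and 22.5 CPM in MC1 to MC4 (log2 fold change 4.56 ± 0.41 (SE), adjusted p = 6.2e-08). The ligands and the receptor did not overlap between the groups. The hedgehog receptor and target Ptch1 (1.43 ± 0.22) was upregulated, and the target Gli1 (0.23 ± 0.31, adjusted p = 0.62) did not pass the test. Of the 22 genes of both pathways tested, 10 (45.5%) were upregulated in hip caps, 3 (13.6%) were downregulated and 9 did not pass the test (median log2 fold change 0.15). Hedgehog and PTHrP genes numbered 5 up and 1 down without MC1, 4 up and 0 down in run 1 alone and 4 up and 10 down with library sizes alone (median -0.76).

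**Figure D3:**
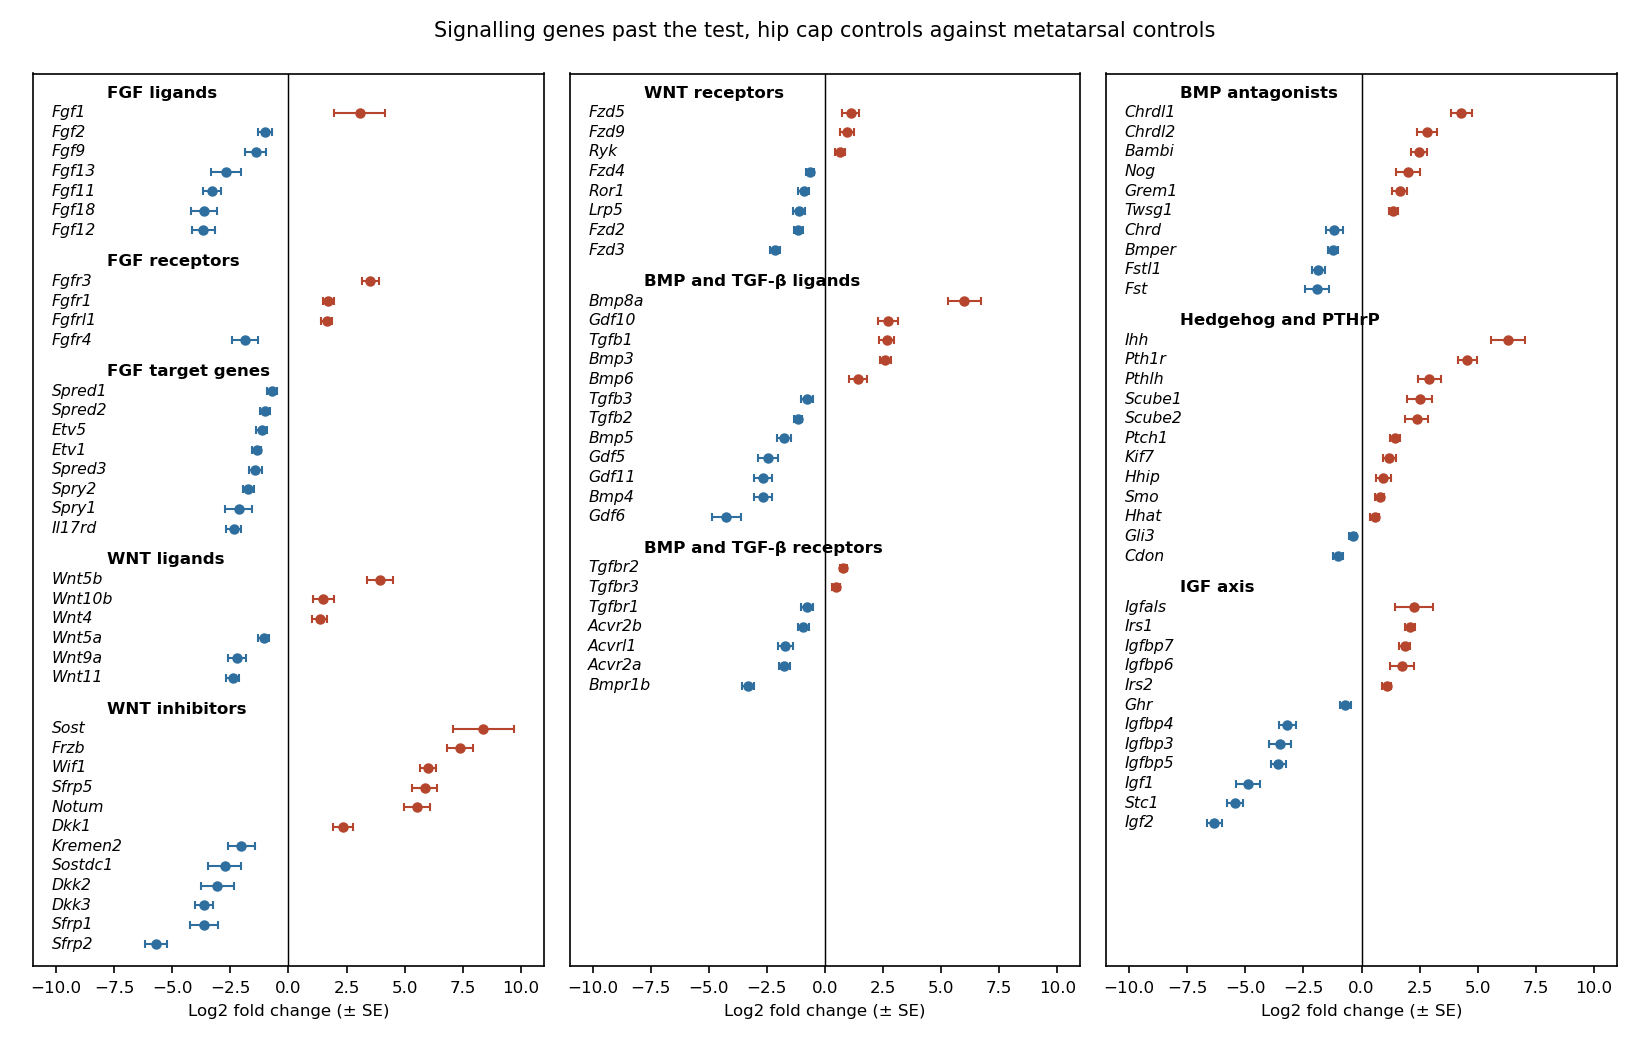
Log2 fold change of hip cap controls relative to metatarsal controls (± SE) for tested FGF, WNT, BMP and TGF-β, hedgehog, PTHrP and IGF genes that passed the test with more than 3 counts in each group, arranged by role. Points right of 0 are higher in hip caps, and the secreted WNT inhibitors fall on both sides, from Sfrp2 (-5.71 ± 0.48) to Sost (8.39 ± 1.30).

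Among retinoid genes the serum carrier Rbp4 (6.26 ± 0.42) and the reductase Dhrs3 (2.21 ± 0.20) were higher. The cellular binding proteins Crabp1 (2 counts in hip caps, 314-fold lower in hip caps, counting interval 87.1 to 2597) and Crabp2 (3 counts in hip caps, 83.9-fold lower in hip caps, counting interval 28.7 to 407) were lower. Aldh1a2, which makes retinoic acid in the embryo, was measured at 0.272, 0 and 0.0953 CPM in HC1 to HC3 and 5.55, 4.65, 4.80 and 3.09 CPM in MC1 to MC4 (2 counts in hip caps, 45.2-fold lower in hip caps, counting interval 12.5 to 373, adjusted p = 0.00081). Of 18 tested, 5 (27.8%) were upregulated in hip caps, 6 (33.3%) were downregulated and 7 did not pass the test (median log2 fold change -0.14). Retinoid genes numbered 3 up and 6 down without MC1, 2 up and 2 down in run 1 alone and 2 up and 8 down with library sizes alone (median -1.07). Among 20 Notch genes, 1 (5%) was upregulated in hip caps, 4 (20%) were downregulated and 15 did not pass the test (median log2 fold change -0.54), with the ligand Jag1 (-2.72 ± 0.40) lower. Notch genes numbered 1 up and 1 down without MC1, 1 up and 2 down in run 1 alone and 1 up and 12 down with library sizes alone (median -1.46). YAP and Hippo genes gave no common direction, with 5 upregulated (22.7%) and 6 downregulated (27.3%) members of 22 tested (median log2 fold change 0.01). The Hippo list numbered 3 up and 4 down without HC1, 3 up and 4 down without HC3, 2 up and 4 down without MC1, 1 up and 1 down in run 1 alone, 5 up and 6 down with RLE factors (median -0.04) and 2 up and 11 down with library sizes alone (median -0.91). Among them the matricellular target Ccn2 was measured at 570.4, 589 and 833 CPM in HC1 to HC3 and 27.9, 37.4, 47.9 and 24.7 CPM in MC1 to MC4 (log2 fold change 4.28 ± 0.37 (SE), adjusted p = 3.4e-08), and the transcription factor Tead2 (-4.20 ± 0.47) was lower.

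Interferon-stimulated genes were lower in hip caps as a group, with few exceptions. These genes encode antiviral proteins and are switched on when interferon-activated factors such as STAT2 and IRF9 bind the interferon-stimulated response element in their promoters. Of 26 tested, 1 (3.85%) was upregulated in hip caps, 22 (84.6%) were downregulated and 3 did not pass the test (median log2 fold change -3.01). Interferon-stimulated genes numbered 0 up and 21 down in run 1 alone. The promoters of 3 members that are used below as examples are shown from 250 bases before to 50 after the transcription start (RefSeq, GRCm38.p6), with matches to the core of that element (GAAA, any 2 bases, GAAA, on either strand) in capitals.
Isg15, chr4:156200769-156201068, strand -: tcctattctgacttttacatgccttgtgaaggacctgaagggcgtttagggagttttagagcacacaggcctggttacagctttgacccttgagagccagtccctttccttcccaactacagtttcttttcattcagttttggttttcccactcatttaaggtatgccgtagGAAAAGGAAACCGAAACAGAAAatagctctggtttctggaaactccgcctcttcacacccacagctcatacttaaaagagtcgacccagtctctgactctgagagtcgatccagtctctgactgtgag
Ifit1, chr19:34640639-34640938, strand +: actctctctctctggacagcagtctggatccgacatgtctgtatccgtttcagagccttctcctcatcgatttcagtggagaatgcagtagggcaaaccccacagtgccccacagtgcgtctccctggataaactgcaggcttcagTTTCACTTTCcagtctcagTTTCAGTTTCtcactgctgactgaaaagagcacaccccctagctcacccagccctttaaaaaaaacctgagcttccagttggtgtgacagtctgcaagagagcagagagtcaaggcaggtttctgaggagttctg
Rsad2, chr12:26456403-26456702, strand -: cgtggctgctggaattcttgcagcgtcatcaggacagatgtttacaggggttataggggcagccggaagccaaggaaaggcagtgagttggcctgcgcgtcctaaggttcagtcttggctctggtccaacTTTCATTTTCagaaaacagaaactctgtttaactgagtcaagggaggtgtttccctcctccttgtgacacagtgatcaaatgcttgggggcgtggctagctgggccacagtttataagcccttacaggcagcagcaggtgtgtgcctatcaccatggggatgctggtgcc
Isg15 has 3 overlapping matches that begin 78, 72 and 66 bases before the start, Ifit1 has 2 that begin at 104 and 85, and Rsad2 has 1 that begins at 120. Those of Ifit1 and Rsad2 read on the other strand. Such a match was found in any window of 13 of the 21 tested members with a promoter in the table. Counted by window and not by gene, it was found in 1131 of all 32851 promoter windows of the same length (3.44%). A gene can have several windows, so these shares are of unlike units. A match is a description of the letters and not a measured binding site.

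Isg15, a ubiquitin-like antiviral protein, was measured at 0.272, 0.318 and 0.381 CPM in HC1 to HC3 and 21.8, 29.1, 16.1 and 9.19 CPM in MC1 to MC4 (log2 fold change -6.17 ± 0.84 (SE), adjusted p = 3e-05). Ifit1, which binds foreign RNA, was measured at 11.1, 6.68 and 1.14 CPM in HC1 to HC3 and 61.2, 67.3, 38.9 and 16.9 CPM in MC1 to MC4 (log2 fold change -3.50 ± 0.56 (SE), adjusted p = 0.00017). Rsad2, which encodes viperin, was measured at 1.09, 1.43 and 0.667 CPM in HC1 to HC3 and 31.0, 37.0, 21.7 and 12.2 CPM in MC1 to MC4 (log2 fold change -4.79 ± 0.75 (SE), adjusted p = 0.00014). Every hip cap library lay below every metatarsal library in these genes. Other members with large decreases were Oasl2 (-5.80 ± 0.65), Usp18 (-4.93 ± 0.52), Gbp3 (-4.48 ± 0.73), Ifit3 (-3.49 ± 0.43), Ifitm3 (-3.46 ± 0.56), Xaf1 (-3.23 ± 0.37) and Bst2 (-3.13 ± 0.42). Transcription factors of the pathway were lower too, among them Irf7 (-4.77 ± 0.83, adjusted p = 0.054 without MC1), Stat2 (-2.43 ± 0.29) and Irf9 (-2.42 ± 0.25), and so were the RNA sensors Ddx58 (-1.81 ± 0.23) and Ifih1 (-2.28 ± 0.45, adjusted p = 0.051 without MC1). Members outside this direction were Ifi27 (0.71 ± 0.22, adjusted p = 0.075 without HC1, 0.17 without HC3 and 0.073 without MC1), which was higher although its groups overlapped, and Irf1 (-0.16 ± 0.30, adjusted p = 0.73), Gbp2 (-0.90 ± 0.43, adjusted p = 0.12) and Ifitm1 (-1.01 ± 0.81, adjusted p = 0.38). The interferon-induced chemokine Cxcl10 was measured at 0, 0.318 and 0 CPM in HC1 to HC3 and 12.4, 16.9, 8.23 and 4.17 CPM in MC1 to MC4 (2 counts in hip caps, 109-fold lower in hip caps, counting interval 30.2 to 899.8, adjusted p = 6.3e-05), and Cxcl9 (-5.65 ± 0.72) was lower as well. Antigen presentation genes had 4 upregulated (21.1%) and 4 downregulated (21.1%) members of 19 tested (median log2 fold change -0.02). Antigen presentation genes numbered 3 up and 2 down without HC1, 4 up and 2 down without HC2, 2 up and 1 down without HC3, 2 up and 1 down without MC1, 2 up and 0 down in run 1 alone and 2 up and 10 down with library sizes alone (median -0.93).

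**Figure D4:**
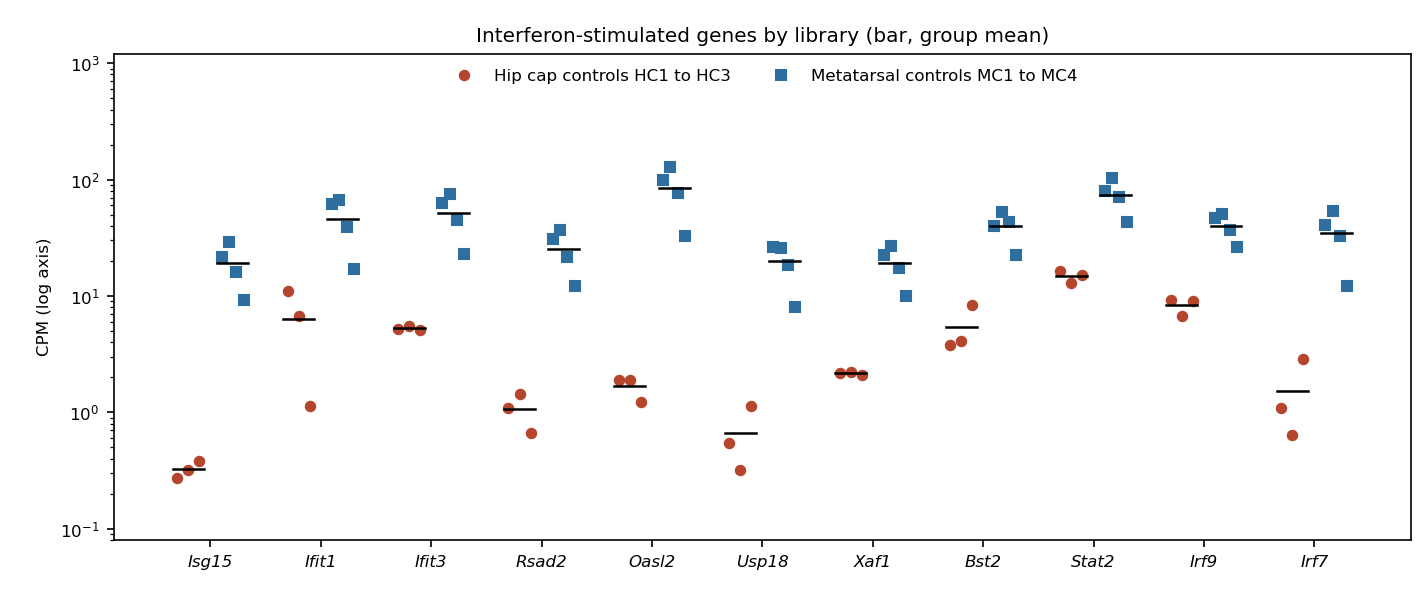
CPM in each control library (logarithmic axis) of 11 interferon-stimulated genes and pathway factors, with hip cap controls HC1 to HC3 and metatarsal controls MC1 to MC4 as separate symbols and a bar at each group mean. The 11 genes were picked among members whose hip cap values all lay below the metatarsal values, so their points do not overlap. Of the 26 members tested, 21 (80.8%) lay so, against 22.8% of all genes.

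Injury cytokines and chemokines gave as many upregulated as downregulated members. Of 29 tested, 7 (24.1%) were upregulated in hip caps, 7 (24.1%) were downregulated and 15 did not pass the test (median log2 fold change 0.48). Cytokine genes numbered 7 up and 3 down without HC1, 4 up and 3 down without HC3, 3 up and 3 down without MC1, 2 up and 3 down in run 1 alone and 2 up and 9 down with library sizes alone (median -0.39). Tnfrsf11b, which encodes the osteoclast inhibitor osteoprotegerin, was measured at 304, 199.9 and 274 CPM in HC1 to HC3 and 2.87, 1.60, 3.60 and 2.08 CPM in MC1 to MC4 (log2 fold change 6.16 ± 0.52 (SE), adjusted p = 6.6e-08). Ptgs2, the inducible prostaglandin synthase, was measured at 35.9, 45.0 and 38.7 CPM in HC1 to HC3 and 2.87, 7.49, 5.09 and 2.24 CPM in MC1 to MC4 (log2 fold change 3.40 ± 0.49 (SE), adjusted p = 4.2e-05). Neither gene overlapped between the groups. The genes of tumour necrosis factor and interleukin 1β, Tnf (-0.29 ± 0.70, adjusted p = 0.79) and Il1b (0.20 ± 1.00, adjusted p = 0.9), did not pass the test. Of the acute phase and complement genes, Cp (6.04 ± 0.52), Trf (4.26 ± 0.43), Clu (3.27 ± 0.32) and C4b (3.09 ± 0.43) were upregulated, where Cp and Trf carry copper and iron. On the lower side were Cd55 (-4.69 ± 0.46), C2 (-3.30 ± 0.63) and Apod (-2.99 ± 0.44). Of 30 tested, 8 (26.7%) were upregulated in hip caps, 4 (13.3%) were downregulated and 18 did not pass the test (median log2 fold change 0.60). Complement and acute phase genes numbered 5 up and 3 down in run 1 alone and 5 up and 6 down with library sizes alone (median -0.18).

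Clock genes, which run in daily cycles, were mostly higher in hip caps or did not pass the test. With library sizes alone more were lower than higher, where 3.35% of all genes were up and 38.6% down. Of 20 tested, 10 (50%) were upregulated in hip caps, 1 (5%) was downregulated and 9 did not pass the test (median log2 fold change 0.62). Clock genes numbered 5 up and 0 down in run 1 alone and 4 up and 6 down with library sizes alone (median -0.29). Nr1d1, which encodes the repressor REV-ERBα, was measured at 49.7, 49.2 and 53.5 CPM in HC1 to HC3 and 2.30, 5.88, 6.23 and 4.09 CPM in MC1 to MC4 (log2 fold change 3.33 ± 0.46 (SE), adjusted p = 2.2e-05). Dbp, an output transcription factor, was measured at 44.0, 25.9 and 67.9 CPM in HC1 to HC3 and 8.04, 6.69, 8.18 and 9.19 CPM in MC1 to MC4 (log2 fold change 2.57 ± 0.30 (SE), adjusted p = 1.6e-06). The groups did not overlap in either. Further upregulated members were Bhlhe41 (2.70 ± 0.29), Per3 (1.85 ± 0.28), Per2 (1.54 ± 0.25), Arntl (1.34 ± 0.22), Nr1d2 (1.34 ± 0.25) and Tef (1.02 ± 0.18). The core genes Clock (-0.04 ± 0.19, adjusted p = 0.9), Cry1 (-0.41 ± 0.23, adjusted p = 0.18) and Per1 (0.18 ± 0.23, adjusted p = 0.6) did not pass the test. The time of day at which explants were frozen is not given in the sources used here.

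Cholesterol synthesis genes were mostly higher by small amounts, and fewer passed the test without MC1 or with library sizes alone. Of 30 tested, 20 (66.7%) were upregulated in hip caps, 1 (3.33%) was downregulated and 9 did not pass the test (median log2 fold change 0.90), and with library sizes alone 3 were higher and 1 lower. Cholesterol genes numbered 7 up and 1 down without MC1 (median 0.76), 1 up and 1 down in run 1 alone (median 1.08) and 3 up and 1 down with library sizes alone (median 0.03). Of all genes, 5.64% were up and 6.4% down without MC1, and 3.35% and 38.6% with library sizes alone. The regulators Insig1 (1.81 ± 0.31), Insig2 (1.86 ± 0.27) and Srebf2 (1.48 ± 0.24) were among those upregulated, and the efflux pump Abca1 (-1.75 ± 0.23) was downregulated. Upregulated antioxidant genes included the secreted enzymes Gpx3 (7.28 ± 0.87) and Sod3 (5.52 ± 0.96). Sod3 was measured at 79.4, 48.9 and 89.1 CPM in HC1 to HC3 and 0.574, 0.428, 6.23 and 1.70 CPM in MC1 to MC4. Of 47 antioxidant genes tested, 16 (34%) were upregulated in hip caps, 4 (8.51%) were downregulated and 27 did not pass the test (median log2 fold change 0.47). Antioxidant genes numbered 10 up and 2 down without HC3, 5 up and 2 down without MC1, 4 up and 0 down in run 1 alone and 3 up and 12 down with library sizes alone (median -0.43). Aldehyde dehydrogenases had 9 upregulated (50%) and 2 downregulated (11.1%) members of 18 tested (median log2 fold change 0.66). The dehydrogenases numbered 3 up and 1 down without MC1, 2 up and 0 down in run 1 alone and 3 up and 5 down with library sizes alone (median -0.23).

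Genes of the mitochondrial genome were lower in hip caps or did not pass the test. Of 25 tested, 0 were upregulated in hip caps, 15 (60%) were downregulated and 10 did not pass the test (median log2 fold change -2.65, or -2.56 with members at 3 or fewer counts in a group set to the floor of 3 counts). Mitochondrial genes numbered 0 up and 4 down without HC3 and 0 up and 1 down in run 1 alone. With the 7 control libraries alone they numbered 0 up and 3 down of 17, against 3624 and 3403 of all 18017 genes in that fit. With the run as the sole batch term they numbered 0 up and 5 down of 25, against 2731 and 2903 of 21283 genes. Without batch terms they numbered 4 up and 12 down of 25, against 4618 and 4835 of 21283 genes. mt-Co3, a cytochrome c oxidase subunit, was measured at 8.70, 151 and 28.8 CPM in HC1 to HC3 and 1026, 719, 677 and 958 CPM in MC1 to MC4 (log2 fold change -3.999 ± 0.77 (SE), adjusted p = 0.001). mt-Atp6, an ATP synthase subunit, was measured at 9.24, 200.5 and 15.6 CPM in HC1 to HC3 and 1699.8, 1563, 1044 and 1326 CPM in MC1 to MC4 (log2 fold change -4.45 ± 0.85 (SE), adjusted p = 0.00098). HC2 had the highest hip cap value in both genes, and the groups did not overlap. The summed level of the mitochondrial genes, their ribosomal RNAs included, was 4876, 38018 and 1637 CPM in HC1 to HC3 and 51104, 43315, 28122 and 31362 CPM in MC1 to MC4, and there HC2 lay within the metatarsal range. Of 79 nuclear genes for subunits of the same complexes, 16 (20.3%) were upregulated in hip caps, 8 (10.1%) were downregulated and 55 did not pass the test (median log2 fold change 0.14). Nuclear subunits numbered 9 up and 4 down without HC1, 13 up and 16 down without HC2, 14 up and 1 down without HC3, 3 up and 6 down without MC1, 15 up and 5 down without MC2, 13 up and 5 down without MC3, 0 up and 0 down in run 1 alone and 0 up and 38 down with library sizes alone (median -0.75).

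Chondrogenic transcription factors moved in both directions. Sox9, the master regulator of chondrocytes, was measured at 958, 690.4 and 775 CPM in HC1 to HC3 and 123, 136, 134 and 117 CPM in MC1 to MC4 (log2 fold change 2.55 ± 0.33 (SE), adjusted p = 5.5e-06). Runx2, which drives hypertrophy, was measured at 266, 299.8 and 256 CPM in HC1 to HC3 and 36.4, 51.8, 72.8 and 41.4 CPM in MC1 to MC4 (log2 fold change 2.70 ± 0.26 (SE), adjusted p = 1.6e-07). Neither factor overlapped between the groups. Further upregulated factors were Foxa2 (4.73 ± 0.44), Sox8 (2.86 ± 0.39), Nkx3-2 (2.26 ± 0.36) and Mef2c (1.59 ± 0.26), and downregulated factors were Sox11 (-5.25 ± 0.33), Pax9 (-4.16 ± 0.62), Nfib (-2.77 ± 0.19), Sox4 (-2.31 ± 0.27) and Nfia (-1.36 ± 0.16), of which Sox11 and Sox4 act in skeletal progenitors. Of 28 tested, 12 (42.9%) were upregulated in hip caps, 8 (28.6%) were downregulated and 8 did not pass the test (median log2 fold change 0.25). These factors numbered 7 up and 6 down without MC1, 6 up and 5 down in run 1 alone and 7 up and 12 down with library sizes alone (median -0.64).

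Hypertrophy and mineralization genes were higher in hip caps almost throughout. Of 22 tested, 18 (81.8%) were upregulated in hip caps, 1 (4.55%) was downregulated and 3 did not pass the test (median log2 fold change 3.28). Hypertrophy genes numbered 14 up and 0 down in run 1 alone. Alpl, the alkaline phosphatase that starts mineral deposition, was measured at 774, 519 and 628 CPM in HC1 to HC3 and 12.8, 30.0, 36.7 and 14.8 CPM in MC1 to MC4 (log2 fold change 5.03 ± 0.49 (SE), adjusted p = 2.9e-07). Panx3, a channel of prehypertrophic chondrocytes, was measured at 109.8, 269 and 98.5 CPM in HC1 to HC3 and 3.06, 7.92, 14.5 and 3.09 CPM in MC1 to MC4 (log2 fold change 5.11 ± 0.77 (SE), adjusted p = 0.00011). The members Spp1 (5.67 ± 0.40), Mmp13 (5.50 ± 0.73), Ibsp (4.61 ± 0.65), Smpd3 (4.58 ± 0.71), S100a1 (3.92 ± 0.38) and Sp7 (3.48 ± 0.32) were upregulated as well. The phosphate transporter gene and the vascular growth factor gene, Slc20a2 (0.15 ± 0.21, adjusted p = 0.64) and Vegfa (-0.40 ± 0.39, adjusted p = 0.48), did not pass the test.

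Glycosaminoglycan genes were more often higher than lower in hip caps. With library sizes alone more were lower than higher, in a fit with 3.35% of all genes up and 38.6% down. Of 50 tested, 22 (44%) were upregulated in hip caps, 7 (14%) were downregulated and 21 did not pass the test (median log2 fold change 0.65). These genes numbered 16 up and 4 down without MC1, 13 up and 2 down in run 1 alone and 9 up and 16 down with library sizes alone (median -0.26). Upregulated members included the chondroitin 4-sulfotransferase gene Chst11 (4.64 ± 0.44), the chain-starting xylosyltransferase gene Xylt1 (3.39 ± 0.29), the sulfate transporter gene Slc26a2 (3.18 ± 0.35), the sulfate donor synthase gene Papss2 (3.02 ± 0.33) and the hyaluronan-degrading Cemip (6.02 ± 0.40). The heparan sulfate genes Hs6st2 (-3.29 ± 0.39) and Sulf2 (-4.28 ± 0.29) and the chondroitin 6-sulfotransferase gene Chst3 (-1.49 ± 0.25) were downregulated. Slc26a2 was measured at 554, 429 and 307 CPM in HC1 to HC3 and 47.1, 41.4, 66.3 and 40.0 CPM in MC1 to MC4. Of 38 genes for collagen modification and export, 20 (52.6%) were upregulated in hip caps, 3 (7.89%) were downregulated and 15 did not pass the test (median log2 fold change 0.67). Collagen modification genes numbered 6 up and 2 down in run 1 alone and 4 up and 9 down with library sizes alone (median -0.25). Upregulated members included Loxl4 (6.60 ± 0.79), Pcolce2 (4.59 ± 0.34), P3h2 (2.68 ± 0.33), Loxl3 (1.66 ± 0.26) and Serpinh1 (1.60 ± 0.22), where Serpinh1 is the collagen chaperone, and Loxl1 (-3.29 ± 0.52) was downregulated. Endoplasmic reticulum chaperone and stress genes had 23 upregulated (60.5%) and 0 downregulated members of 38 tested (median log2 fold change 0.81), led by Chac1 (2.15 ± 0.36), Herpud1 (2.00 ± 0.28), P4hb (1.54 ± 0.32) and Dnajc3 (1.30 ± 0.22). The chaperone genes numbered 15 up and 1 down without HC3, 9 up and 0 down without MC1, 0 up and 1 down in run 1 alone and 2 up and 4 down with library sizes alone (median -0.11).

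Proteolytic genes showed an exchange of members. Among 17 matrix metalloproteinases, 5 (29.4%) were upregulated in hip caps, 6 (35.3%) were downregulated and 6 did not pass the test (median log2 fold change -0.57). Metalloproteinases numbered 3 up and 6 down without HC1, 3 up and 3 down without HC3, 2 up and 4 down without MC1, 3 up and 2 down in run 1 alone and 3 up and 7 down with library sizes alone (median -1.31). The collagenase and stromelysin genes Mmp13 (5.50 ± 0.73) and Mmp3 (4.56 ± 0.65) were higher, and the gelatinase gene and its membrane-bound activator, Mmp2 (-2.18 ± 0.30) and Mmp14 (-2.39 ± 0.32), were lower. ADAMTS genes were mostly lower, with 3 upregulated (13%) and 14 downregulated (60.9%) members of 23 tested (median log2 fold change -1.21). ADAMTS genes numbered 3 up and 6 down without MC1, 2 up and 4 down in run 1 alone and 1 up and 17 down with library sizes alone (median -2.11). Downregulated members were Adamts15 (-5.43 ± 0.48), Adamts19 (-3.73 ± 0.49), Adamts12 (-2.58 ± 0.37), Adamts17 (-2.44 ± 0.28) and Adamts1 (-1.44 ± 0.24), the procollagen peptidase gene Adamts3 (1.76 ± 0.34) and Adamtsl2 (5.35 ± 0.65) were higher, and the aggrecanase gene Adamts5 (-0.64 ± 0.27, adjusted p = 0.08) did not pass the test. Adamts15 was measured at 0.815, 0.159 and 1.05 CPM in HC1 to HC3 and 22.4, 20.8, 32.0 and 34.3 CPM in MC1 to MC4. Inhibitors with higher levels were Itih2 (5.87 ± 0.66), Cst3 (4.59 ± 0.31), Timp1 (2.44 ± 0.41), Timp3 (1.96 ± 0.31) and Serpine2 (1.90 ± 0.21), and those with lower levels were Itih5 (-2.59 ± 0.29) and Spock2 (-2.80 ± 0.30). Cst3, which encodes the cathepsin inhibitor cystatin C, was measured at 1302, 1303 and 1942 CPM in HC1 to HC3 and 51.7, 64.0, 60.7 and 63.6 CPM in MC1 to MC4.

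Collagens outside the cartilage fibrils also divided. Of the 43 collagen genes tested, cartilage members included, 14 (32.6%) were upregulated in hip caps, 16 (37.2%) were downregulated and 13 did not pass the test (median log2 fold change -0.56). Collagen genes numbered 13 up and 10 down without HC3, 10 up and 7 down without MC1 and 9 up and 10 down in run 1 alone. The basement membrane chains Col4a6 (4.76 ± 0.46), Col4a4 (3.90 ± 0.75) and Col4a5 (3.12 ± 0.30) were upregulated. Downregulated members included Col6a6 (-6.42 ± 0.66), Col14a1 (-5.74 ± 0.62), Col3a1 (-3.18 ± 0.46), Col8a2 (-2.35 ± 0.21), Col26a1 (-3.58 ± 0.43) and Col23a1 (-2.93 ± 0.31). Col14a1, which coats fibrils of perichondrium and tendon, was measured at 2.45, 0.477 and 2.10 CPM in HC1 to HC3 and 88.4, 79.2, 101 and 84.3 CPM in MC1 to MC4 (log2 fold change -5.74 ± 0.62 (SE), adjusted p = 3.5e-06). Tendon and perichondrium genes were mostly lower, with 4 upregulated (15.4%) and 17 downregulated (65.4%) members of 26 tested (median log2 fold change -1.71). The matrix genes among them were split, with Eln (-5.85 ± 0.33), Postn (-4.43 ± 0.62), Dpt (-3.70 ± 0.51) and Fbln1 (-3.58 ± 0.48) lower and Dcn (3.45 ± 0.35), Fmod (2.88 ± 0.40) and Thbs4 (2.89 ± 0.53) higher. Perichondrial genes numbered 3 up and 10 down in run 1 alone. Joint surface genes had 5 upregulated (38.5%) and 4 downregulated (30.8%) members of 13 tested (median log2 fold change 0.26), where Vit (6.31 ± 0.44), Htra4 (5.07 ± 0.98) and Cilp (4.04 ± 0.67) were higher and Tspan15 (-2.61 ± 0.39) was lower. Surface genes numbered 3 up and 2 down in run 1 alone and 5 up and 6 down with library sizes alone (median -0.65).

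Ephrin, Eph and semaphorin genes of axon guidance were more often lower than higher in hip caps, and netrin genes were not. Among 20 ephrins and Eph receptors, 1 (5%) was upregulated in hip caps, 11 (55%) were downregulated and 8 did not pass the test (median log2 fold change -1.07). Ephrin and Eph genes numbered 0 up and 7 down without MC1 and 0 up and 5 down in run 1 alone. Epha7, a receptor of limb mesenchyme, was measured at 1.36, 1.11 and 1.71 CPM in HC1 to HC3 and 27.9, 34.2, 28.7 and 21.4 CPM in MC1 to MC4 (log2 fold change -4.13 ± 0.42 (SE), adjusted p = 4.3e-07). Efnb2 was measured at 13.9, 15.0 and 13.9 CPM in HC1 to HC3 and 61.1, 64.6, 57.6 and 63.8 CPM in MC1 to MC4 (log2 fold change -2.09 ± 0.20 (SE), adjusted p = 1.3e-07). There was no overlap of the groups in either. The receptor genes Robo1 (-2.93 ± 0.17) and Robo2 (-3.72 ± 0.23) were lower, and so were the repulsive semaphorins Sema3a (-3.86 ± 0.47), Sema6a (-3.32 ± 0.20) and Sema3f (-3.22 ± 0.45). On the other side, Sema7a (2.97 ± 0.54) and Plxnb1 (2.17 ± 0.25) were higher. Semaphorins, plexins and neuropilins had 5 upregulated (16.1%) and 11 downregulated (35.5%) members of 31 tested (median log2 fold change -0.77). Semaphorin genes numbered 3 up and 9 down without HC3, 3 up and 6 down without MC1, 2 up and 3 down in run 1 alone and 2 up and 22 down with library sizes alone (median -1.58). Netrins and their receptors had 4 upregulated (36.4%) and 3 downregulated (27.3%) members of 11 tested (median log2 fold change 0.55). Netrin genes numbered 2 up and 2 down without MC1, 2 up and 2 down in run 1 alone and 2 up and 3 down with library sizes alone (median -0.37). In the fit with library sizes alone, 3.35% of all genes were up and 38.6% down. The basement membrane netrin gene Ntn4 (5.29 ± 0.32) was higher and the netrin receptor gene Unc5d (-2.87 ± 0.38) was lower.

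Of 43 synaptic genes tested, 0 were upregulated in hip caps, 23 (53.5%) were downregulated and 20 did not pass the test (median log2 fold change -1.39, or -1.41 with members at 3 or fewer counts in a group set to the floor of 3 counts). Synaptic genes numbered 0 up and 14 down without MC1 and 0 up and 7 down in run 1 alone. The nerve synapse adhesion gene Nlgn1 (-3.59 ± 0.39) and the neuromuscular junction genes Chrna1 (-5.12 ± 0.65) and Agrn (-2.42 ± 0.25) were among those downregulated. The fetal acetylcholine receptor gene Chrng had 0 counts in hip caps, lower by at least 48.6-fold, adjusted p = 2.4e-05. Skeletal muscle markers moved with them, with 1 upregulated (3.85%) and 21 downregulated (80.8%) members of 26 tested (median log2 fold change -4.84, or -4.57 with members at 3 or fewer counts in a group set to the floor of 3 counts). Their summed level was 95.9, 70.2 and 81.9 CPM in HC1 to HC3 and 1269, 1414, 1547 and 3048 CPM in MC1 to MC4, so every hip cap lay below every metatarsal library, and 4 of the markers had 0 counts in all 3 hip caps. Muscle markers numbered 1 up and 14 down in run 1 alone. The part of muscle in the synaptic counts was not tested. The 9 neuron markers summed to 4.08, 3.82 and 2.86 CPM in HC1 to HC3 and 10.5, 14.3, 12.4 and 8.41 CPM in MC1 to MC4.

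Channels that sense stretch or carry calcium moved in both directions. Of 33 tested, 11 (33.3%) were upregulated in hip caps, 9 (27.3%) were downregulated and 13 did not pass the test (median log2 fold change 0.32). Mechanosensitive channels numbered 7 up and 7 down without MC1, 4 up and 5 down in run 1 alone and 5 up and 15 down with library sizes alone (median -0.56). Trpv4, the osmotic and stretch channel of chondrocytes, was measured at 239, 157 and 236 CPM in HC1 to HC3 and 11.9, 14.9, 32.7 and 21.0 CPM in MC1 to MC4 (log2 fold change 3.75 ± 0.49 (SE), adjusted p = 1.7e-05). Piezo1 was measured at 261, 200.2 and 287 CPM in HC1 to HC3 and 91.7, 113, 131 and 134 CPM in MC1 to MC4 (log2 fold change 1.23 ± 0.19 (SE), adjusted p = 4.4e-05). Piezo2 was measured at 6.79, 12.3 and 10.4 CPM in HC1 to HC3 and 74.6, 72.3, 86.6 and 76.2 CPM in MC1 to MC4 (log2 fold change -2.86 ± 0.33 (SE), adjusted p = 2.1e-06). Piezo1 and Trpv4 were higher in each hip cap than in each metatarsal library, and Piezo2 was lower. Voltage-gated calcium channel genes Cacna1g (-5.84 ± 0.46), Cacna1h (-4.01 ± 0.32) and Cacna1c (-2.02 ± 0.22) were downregulated. Potassium channels had 7 upregulated (10.3%) and 19 downregulated (27.9%) members of 68 tested (median log2 fold change -0.88, or -0.95 with members at 3 or fewer counts in a group set to the floor of 3 counts), with the acid-sensitive Kcnk5 (5.58 ± 0.70) and the calcium-activated Kcnma1 (3.12 ± 0.25) higher and Kcnn3 (-4.74 ± 0.52) lower. Channels for potassium numbered 4 up and 11 down without MC1, 3 up and 4 down in run 1 alone and 4 up and 29 down with library sizes alone (median -1.73). Among 283 solute carriers, 70 (24.7%) were upregulated in hip caps, 45 (15.9%) were downregulated and 168 did not pass the test (median log2 fold change 0.13). Solute carriers numbered 52 up and 25 down without HC3, 35 up and 20 down without MC1, 19 up and 7 down in run 1 alone and 18 up and 99 down with library sizes alone (median -0.77). Upregulated carriers included Slc2a5 (6.16 ± 0.78), Slc1a1 (4.58 ± 0.53), Slc43a3 (3.83 ± 0.26), Slc22a4 (3.76 ± 0.57) and Slc8a3 (3.72 ± 0.39), which transport fructose, glutamate, nucleobases, ergothioneine and calcium.

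Of 66 cell cycle genes, 2 (3.03%) were upregulated in hip caps, 6 (9.09%) were downregulated and 58 did not pass the test (median log2 fold change 0.04). Genes of the cell cycle numbered 2 up and 2 down without HC3, 0 up and 2 down without MC1, 0 up and 1 down in run 1 alone, 2 up and 6 down with RLE factors (median -0.01) and 0 up and 15 down with library sizes alone (median -0.85). With the 7 control libraries alone they numbered 14 up and 6 down of 65, against 3624 up and 3403 down of all 18017 genes in that fit. Cytosolic ribosomal proteins had 11 upregulated (13.4%) and 6 downregulated (7.32%) members of 82 tested (median log2 fold change 0.21). Ribosomal protein genes numbered 5 up and 1 down without HC1, 17 up and 11 down without HC2, 8 up and 0 down without HC3, 1 up and 3 down without MC1, 0 up and 0 down in run 1 alone and 0 up and 39 down with library sizes alone (median -0.71). With the 7 control libraries alone they numbered 29 up and 3 down of 81, against 3624 up and 3403 down of all 18017 genes. Of these genes, 31 members (37.8%) lay above all metatarsal values in every hip cap and 5 (6.10%) below them, against 19.6% and 22.8% of all genes. Of 21 DNA methylation and Polycomb genes, 2 (9.52%) were upregulated in hip caps, 8 (38.1%) were downregulated and 11 did not pass the test (median log2 fold change -0.54), with the methyltransferase genes Ezh2 (-1.35 ± 0.16) and Dnmt3a (-0.70 ± 0.15) lower and Cbx7 (1.87 ± 0.30) higher. Polycomb and methylation genes numbered 1 up and 5 down without MC1, 0 up and 1 down in run 1 alone and 0 up and 14 down with library sizes alone (median -1.45). Zinc finger genes named Zfp were lower more often than higher, with 17 upregulated (4.56%) and 84 downregulated (22.5%) members of 373 tested (median log2 fold change -0.34). Zfp genes numbered 7 up and 58 down without HC3, 6 up and 12 down without MC1, 2 up and 3 down in run 1 alone and 2 up and 233 down with library sizes alone (median -1.23).

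Markers of other cell types that an explant can hold were counted in the same way. Mast cell proteases were at or near 0 in hip caps, and 4 of the mast cell markers had 0 counts in all 3 hip caps. Cma1, a mast cell chymase, was measured at 0, 0 and 0 CPM in HC1 to HC3 and 4.98, 3.00, 14.5 and 8.03 CPM in MC1 to MC4 (0 counts in hip caps, lower by at least 55.2-fold, adjusted p = 0.00062). Of 9 mast cell markers, 0 were upregulated in hip caps, 7 were downregulated and 2 did not pass the test (median log2 fold change -6.51, or -2.82 with members at 3 or fewer counts in a group set to the floor of 3 counts). Mast cell markers numbered 0 up and 3 down without HC3, 0 up and 3 down without MC1 and 0 up and 0 down in run 1 alone. Osteoclast markers had 4 upregulated (33.3%) and 0 downregulated members of 12 tested (median log2 fold change 1.06). Osteoclast markers numbered 1 up and 0 down without MC1, 3 up and 0 down in run 1 alone and 3 up and 2 down with library sizes alone (median 0.16). Acp5, the osteoclast acid phosphatase, was measured at 96.7, 142 and 113 CPM in HC1 to HC3 and 0.766, 3.80, 5.15 and 2.16 CPM in MC1 to MC4 (log2 fold change 5.86 ± 0.82 (SE), adjusted p = 5e-05), and the protease gene Ctsk (1.14 ± 0.48, adjusted p = 0.083) did not pass the test. Osteoblast and osteocyte markers had 7 upregulated (50%) and 3 downregulated (21.4%) members of 14 tested (median log2 fold change 2.15), and the osteocyte gene Mepe had 1 count in metatarsals, 306-fold higher in hip caps, counting interval 54.8 to 12068, adjusted p = 8.1e-05. The summed level of these bone markers was 4117, 2839.5 and 4243 CPM in HC1 to HC3 and 4089, 4853, 6953 and 4689 CPM in MC1 to MC4, and the groups overlapped. Bone cell markers numbered 6 up and 1 down without MC1 and 6 up and 2 down in run 1 alone. The part of bone cells and osteoclasts in the hypertrophy and protease counts was not tested.

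Among 22 endothelial markers, 0 were upregulated in hip caps, 2 (9.09%) were downregulated and 20 did not pass the test (median log2 fold change -0.62), with Pecam1 (0.36 ± 0.54, adjusted p = 0.66), Cdh5 (-0.13 ± 0.62, adjusted p = 0.9) and Emcn (-0.55 ± 0.70, adjusted p = 0.59). Among 16 macrophage markers, 1 (6.25%) was upregulated in hip caps, 1 (6.25%) was downregulated and 14 did not pass the test (median log2 fold change -0.67), with Csf1r (0.87 ± 0.52, adjusted p = 0.22), Adgre1 (-0.31 ± 0.65, adjusted p = 0.76) and Ptprc (-0.19 ± 0.62, adjusted p = 0.85). Schwann cell markers had 3 upregulated (25%) and 4 downregulated (33.3%) members of 12 tested (median log2 fold change -0.73). Schwann cell markers numbered 2 up and 2 down without MC1 and 2 up and 0 down in run 1 alone. Endothelial markers numbered 0 up and 0 down without HC3, 0 up and 0 down without MC1, 0 up and 0 down in run 1 alone and 0 up and 10 down with library sizes alone (median -1.47). With the 7 control libraries alone endothelial markers numbered 0 up and 10 down of 21, against 3624 and 3403 of all 18017 genes in that fit. Of the 22 endothelial markers, 0 (0%) lay above all metatarsal values in every hip cap and 9 (40.9%) below them, against 19.6% and 22.8% of all genes. Macrophage markers numbered 0 up and 0 down in run 1 alone and 0 up and 6 down with library sizes alone (median -1.56). With the 7 control libraries alone macrophage markers numbered 3 up and 3 down of 15, against 3624 and 3403 of all 18017 genes in that fit. Of the 16 macrophage markers, 2 (12.5%) lay above all metatarsal values in every hip cap and 8 (50%) below them, against 19.6% and 22.8% of all genes. The summed endothelial level was 205, 168 and 205 CPM in HC1 to HC3 and 201, 280.0, 288 and 276 CPM in MC1 to MC4. Epidermal markers, in which MC2 stood apart, summed to 8.70, 10.2 and 9.91 CPM in HC1 to HC3 and 5.74, 351, 7.55 and 10.2 CPM in MC1 to MC4 and had 0 upregulated and 1 downregulated members of 7 tested (median log2 fold change -1.91). Epidermal markers numbered 0 up and 0 down in run 1 alone.

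**Figure D5:**
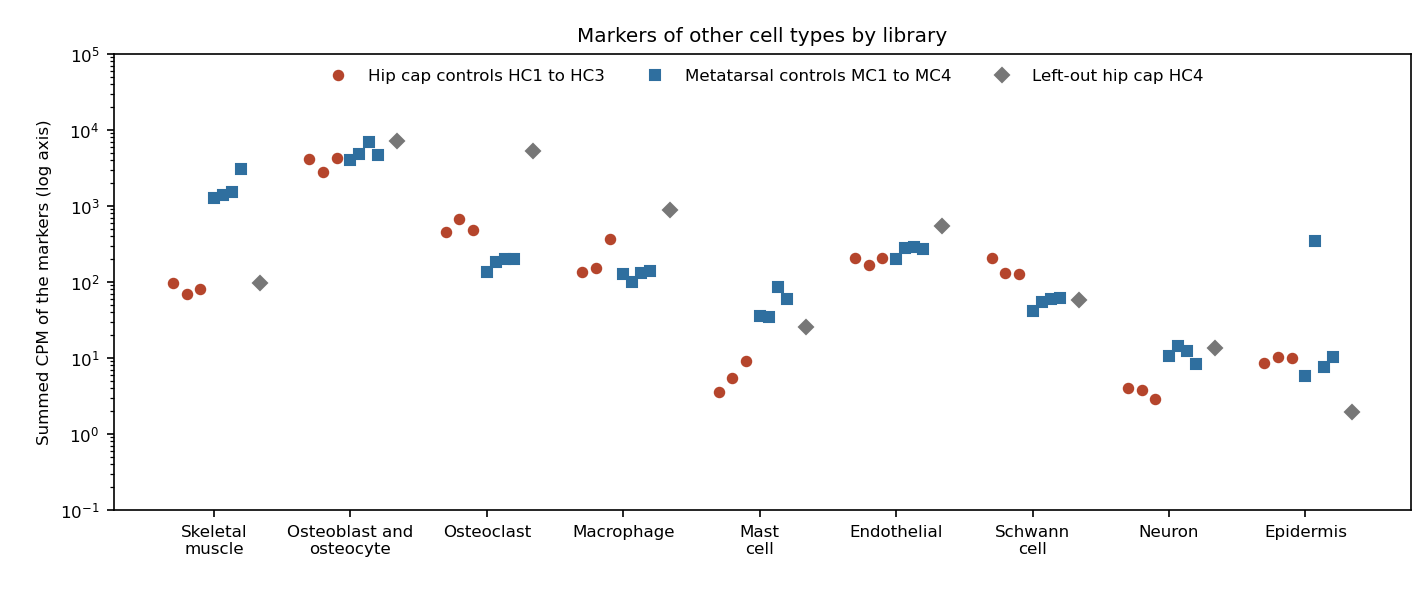
Summed CPM of the tested markers of 9 cell types in each control library (logarithmic axis), for hip cap controls HC1 to HC3, metatarsal controls MC1 to MC4 and the left-out hip cap HC4. Skeletal muscle markers are lower in HC1 to HC3 than in each metatarsal library, the epidermal point of MC2 stands above the others, and osteoclast and macrophage points of HC4 stand above those of HC1 to HC3.

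The left-out hip cap HC4 was set against MC2, MC3 and MC4, which were assigned to its run, in a fit of that run alone. There 5412 genes (22.8% of 23723 tested) were upregulated and 7751 (32.7%) downregulated, with 1 hip cap library assumed to vary like the other groups. HC4 shared some differences with the other hip caps and not others. In that fit Hox genes numbered 16 up and 14 down of 34, and imprinted genes 2 and 32 of 40. Interferon-stimulated genes numbered 4 up and 17 down of 26. Hedgehog and PTHrP genes numbered 2 up and 14 down of 22, circadian clock genes 3 up and 9 down of 20, and SOX and chondrogenic transcription factors 3 up and 13 down of 28. Injury cytokines and chemokines numbered 21 up and 3 down of 29. In HC4 itself Isg15 was at 3.52 CPM, below each metatarsal library, Hoxd13 at 0 CPM, Ihh at 6.90 CPM and Sost at 7.38 CPM. Sox9 and Pthlh, which were upregulated in HC1 to HC3, had 96.5 and 1.31 CPM in HC4 and log2 fold changes of -0.50 (adjusted p = 0.21) and -1.26 (adjusted p = 0.093) in that fit. HC4 differed from the other hip caps in osteoclast genes, with Acp5 at 1444 CPM, and in further lists. Its cartilage matrix genes summed to 13240 CPM, against 95821, 60637 and 88193 CPM in HC1 to HC3. Matrix metalloproteinases summed to 6236 CPM, against 939, 1394 and 1151 CPM. Metallothionein and metal transport genes summed to 9352 CPM, against 1996, 2304 and 2484 CPM. The cause of these differences was not tested.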

How the data were processed

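The deposited table holds estimated counts per gene, which the authors made by trimming reads with Trim Galore 0.6.5, quantifying them with kallisto (version not given in the sources used here) and summing transcripts per gene with tximport. The submitters' processing notes name GRCm39. The counts were rounded. Symbols came from an annotation of GRCm38, which named 48845 of the 52178 genes, and 3333 stayed unnamed. Libraries HC4 and H502 were left out as in the study. Following its design, edgeR 4.0.16 (R 4.3.3) fitted group, sequencing run and library type over 22 libraries of 6 groups after filterByExpr and TMM scaling, with a robust two-sided quasi-likelihood test and Benjamini-Hochberg adjustment. Run was read from the colour strip of a figure of the study and is uncertain, as the 9 and 15 libraries it gives differ from the numbers per sequencing kit in the study's methods. Run 1, the counts within it and the weights of the libraries rest on that reading. The library type came from the labels. DESeq2 1.42.0 and further alternatives are given with the closing section. CPM are counts per 1000000 of the TMM-scaled library size.

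A symbol family or list was described by its counts and median, with no test of the list. The members and lists were chosen with earlier results of these data known. Genes named are list members with large, non-overlapping differences (at most 8 in each direction, a group mean of at least 1 CPM) or defining roles, and the 15 highest and 15 lowest over all genes with a group mean of at least 10 CPM, outside cartilage matrix, muscle, pseudogenes and unnamed genes. Dsp, Krt10 and Xist were singled out after their values were seen. Estimated counts of near-identical paralogs are uncertain. Libraries of both strand types entered the fit, with HC3 as the sole unstranded control, so antisense overlap could not be resolved in all. Intervals and floors cover counting error only. The scripts were tested on simulated data. Some members of the lists are counted but not reported here by name.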

Additional observations from a re-analysis of the deposited data

Results flagged for a closer look

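The following values lay far from the others of their group. In the metatarsal controls, 1 library stood outside the other 3 by Dixon's 95% criterion for 4 values in 25 of the 311 named genes, and chance alone gives such a flag in about 1 of 20 groups. MC3 was high in the joint surface genes Prg4 (201 CPM), Htra4 (4.29 CPM) and Myoc (3.89 CPM). It was also high in Fgfr3 (59.9 CPM), Sox8 (13.4 CPM), Slc8a3 (17.2 CPM), Loxl3 (23.7 CPM), Cemip (6.69 CPM), Hoxa11 (10.2 CPM), Hoxc10 (2.00 CPM), Sost (0.343 CPM) and Serpina1d (0.114 CPM), and low in Etv1 (20.0 CPM). MC2 was high in the epidermal genes Dsp (143 CPM) and Krt10 (94.4 CPM), in Igfbp2 (33.6 CPM), and in Rspo4 (0.107 CPM) and Mepe (0.0535 CPM), where the other 3 libraries held 0 counts. MC4 was high in the limb and matrix genes Osr2 (68.1 CPM), Sall1 (26.8 CPM), Col26a1 (96.1 CPM) and Tspan15 (25.9 CPM), and low in Pthlh (1.70 CPM). MC1 was high in Ptn (469 CPM) and Id2 (26.4 CPM). Hip caps HC1 to HC3 are too few for this criterion.

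The left-out hip cap HC4, which no count of the comparison uses, held over 2 times the summed level of the highest of the 7 control libraries in markers of 2 cell types. Its osteoclast markers summed to 5224 CPM and its macrophage markers to 890.2 CPM.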

How the results depend on the processing

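Of the 282 named genes past the threshold, each kept its call and direction with DESeq2, relative log expression (RLE) factors, TMM factors without mitochondrial and top genes, no low-count filter, other batch terms and the replicate block. With at least 10 counts in each control library, the 172 that could be fitted kept theirs. Counts of all genes (up, then down) and of members of the lists past the threshold were 2994, 3378 and 1379 as reported. The counts up changed by over 1.5 times with library sizes alone (712), without batch terms (4618), in run 1 alone (593), in run 2 alone (5412) and with an absolute log2 fold change of at least 1 (1924). The counts down did so with library sizes alone (8217), in run 1 alone (478) and in run 2 alone (7751), and the list members in run 1 alone (399) and run 2 alone (2101). Leaving out each control library gave 1204 to 3090 up, 1366 to 3607 down and 693 to 1404 list members, with the lowest values without MC1, which cost 16 of the named calls. Without HC3, the sole unstranded control library of the fit, there were 2155 up and 2235 down, and 3 named calls were lost. The 7 control libraries alone cost 2 named calls, all 24 libraries 16, run 1 alone 64 and library sizes alone 19.

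Replicate numbers were not treated as pairs in the main fit. The correlations of same-numbered residuals were -0.068, 0.015 and 0.048, and so few values cannot exclude a pairing. With the replicate block 2826 genes were up, 3264 down and 1336 list members past the threshold. Run 2 alone, in which HC4 stands for the hip caps, was chosen after the data were seen. There 16 of the named calls had the other sign, whether or not they passed in that fit. Their log2 fold changes were Adamts3 -1.26, Fgfrl1 -0.14, Foxa2 -6.10, Fstl1 0.031, Hoxd9 -1.60, Ifitm3 0.36, Insig1 -0.010, Nkx3-2 -0.72, Per2 -0.40, Pthlh -1.26, Rspo4 -2.76, Slc2a5 -4.40, Sox9 -0.50, Spry1 0.58, Srebf2 -0.26 and Tef -0.86. Genes not past the test before that passed with the other sign there were Adamts5 0.95, Adgre1 2.18, Bmpr1a -0.70, Emcn 1.97, Gbp2 1.80, Gli1 -1.29, Ifitm1 1.87, Irf1 0.89, Per1 -1.14, Ptprc 1.72 and Tnf 2.02. With library sizes alone Bmpr1a -0.91, Ifi27 -0.21 and Per1 -0.72 changed sign, and without MC2 Dsp, the epidermal gene in which MC2 stood apart, was at 2.30, while leaving out each control library in turn gave Dsp values from -4.65 to 2.50. The cause of these changes was not tested. Depth limits low genes, as 3 counts over the group equal 0.147 CPM in hip caps and 0.0552 CPM in metatarsals.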
